A study of Mus musculus with 18 samples.

Results

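The genes described here encode 10 secreted or membrane-bound ligands that T cells make when their antigen receptor is engaged. They are the cytokine genes Ifng, Il2, Il21 and Il10, the colony-stimulating factor genes Csf1 and Csf2, and the tumour necrosis factor (TNF) family genes Tnf, Lta, Tnfsf8 and Tnfsf14. Members were chosen by name. Every probe whose RefSeq accession maps to one of these symbols was taken, which gave 12 probes for the 10 genes, out of 17174 genes that could be named on the array. All 10 genes passed the filter on dim probes and were tested.

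Naive CD4+ T cells, sorted as CD44low from the spleens of C57BL/6 mice, were profiled on single-colour Agilent arrays, 1 mouse per array and 3 mice in each of 6 groups. Mice of 3 genotypes, named WT, LAT KO and Y136F, received tamoxifen over 1 or 4 weeks. LAT is the membrane adaptor that couples the T cell receptor (TCR) to phospholipase C-gamma and Ras. By their titles, LAT KO mice were ERCre+ LAT f/-, with 1 floxed and 1 null copy of Lat. Y136F mice were ERCre+ LAT f/m (Y136F/- in the text of the series), which leaves them a copy without the tyrosine bound by phospholipase C-gamma. WT mice were ERCre- LAT f/- by title, whereas the same text has every mouse carry the inducible Cre. If the titles hold, presence of Cre and loss of LAT cannot be told apart. Every Y136F mouse was labelled female, and at 4 weeks every WT or LAT KO mouse was labelled male. The 1-week WT and LAT KO groups each held 2 females and 1 male. The title of the series names tonic signalling, the low signal of resting lymphocytes, as the question.

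TCR ligation raises calcium, which activates calcineurin and moves NFAT factors to the nucleus, and in parallel activates Ras and protein kinase C, which feed AP-1 and NF-kB. These factors act together on cytokine promoters, so naive T cells at rest carry little cytokine mRNA and make it within hours of stimulation. Interferon-gamma and IL-21 are known mainly from differentiated effector and follicular helper T cells, IL-2 from freshly activated T cells, and the colony-stimulating factors act on myeloid cells.

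Shown first are the promoters of the 4 genes that differed in Y136F cells after 4 weeks, then Il21, which came nearest to them without being called, and Il2, the textbook NFAT target, for comparison. Each sequence is the 250 bases before the RefSeq transcription start in assembly GRCm38.p6, written 5′ to 3′ on the gene's own strand. Capitals mark the NFAT core GGAAA, or TTTCC where it lies on the other strand, the AP-1 site TGANTCA and the NF-kB consensus. Csf1 lies at chr3:107760470-107760719 on the minus strand and Ifng at chr10:118440796-118441045 on the plus strand. The windows of Tnfsf8 (chr4:63861285-63861534), Tnfsf14 (chr17:57194182-57194431), Il21 (chr3:37232637-37232886) and Il2 (chr3:37125955-37126204) are on the minus strand.
Csf1: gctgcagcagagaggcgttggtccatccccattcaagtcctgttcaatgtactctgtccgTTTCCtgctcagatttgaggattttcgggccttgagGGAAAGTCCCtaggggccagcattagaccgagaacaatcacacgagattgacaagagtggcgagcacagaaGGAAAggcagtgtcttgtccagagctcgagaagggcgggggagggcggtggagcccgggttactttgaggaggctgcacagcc
Ifng: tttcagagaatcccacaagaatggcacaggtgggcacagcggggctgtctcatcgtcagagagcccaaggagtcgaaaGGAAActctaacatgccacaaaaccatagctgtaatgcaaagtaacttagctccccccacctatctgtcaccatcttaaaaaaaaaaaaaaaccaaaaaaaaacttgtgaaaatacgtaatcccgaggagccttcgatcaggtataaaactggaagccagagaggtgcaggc
Tnfsf8: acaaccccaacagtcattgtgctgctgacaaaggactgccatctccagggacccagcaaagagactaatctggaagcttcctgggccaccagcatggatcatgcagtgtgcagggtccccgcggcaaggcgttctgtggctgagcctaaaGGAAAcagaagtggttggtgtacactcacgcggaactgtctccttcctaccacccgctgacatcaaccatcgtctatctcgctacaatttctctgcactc
Tnfsf14: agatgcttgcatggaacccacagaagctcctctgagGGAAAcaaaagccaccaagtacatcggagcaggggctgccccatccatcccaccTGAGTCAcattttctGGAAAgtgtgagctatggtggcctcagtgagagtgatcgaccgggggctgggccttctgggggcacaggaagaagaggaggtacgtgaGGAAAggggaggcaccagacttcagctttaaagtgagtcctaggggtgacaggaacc
Il21: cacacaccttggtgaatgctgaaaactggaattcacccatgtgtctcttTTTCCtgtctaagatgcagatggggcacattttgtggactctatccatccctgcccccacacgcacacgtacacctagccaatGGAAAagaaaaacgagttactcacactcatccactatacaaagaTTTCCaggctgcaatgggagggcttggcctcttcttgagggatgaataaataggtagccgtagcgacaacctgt
Il2: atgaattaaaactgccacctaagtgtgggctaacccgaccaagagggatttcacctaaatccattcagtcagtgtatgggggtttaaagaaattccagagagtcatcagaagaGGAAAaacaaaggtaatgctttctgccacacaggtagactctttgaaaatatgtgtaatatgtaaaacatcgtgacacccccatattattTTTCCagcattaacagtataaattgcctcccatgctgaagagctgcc
An NFAT core occurred in all 9 member promoters that RefSeq's table holds, and in 55.6% of its 32851 promoters of this length. It was thus present in genes that differed and in genes that were not called, with 2 cores in Il2 and 3 in Tnf. An AP-1 site was found in the Tnfsf14 window alone (6.75% of all promoters). An NF-kB match was found in the Csf1 window alone (3.9%), where it overlaps an NFAT core. The T-box half-site TCACAC, read on both strands, was present in Il21, Csf1 and Tnfsf14 (12.3%) and absent from the Ifng window. The letters of an EGR site (GCGNGGGCG, 4.7%) were in none of the 9. The letters TATAAA were present in Ifng, Il2 and Tnf between bases -31 and -24 before the start, and in Lta at -167 to -162 (12.4% of promoters hold them anywhere in the window). These are matches of letters, and binding was not measured.

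Signals are given as scaled log2 values, the log2 of the spot signal minus the array's own 75th percentile, so that 0 is the signal that 75% of the spots lie below. Levels of different genes are not comparable, since each probe has its own response. Of the 12 probes 10 were well above the local background on 18 of 18 arrays. The Il21 probe was on 17 (94.4%), missing LAT KO replicate 2 of 1 week, and the Il10 probe on 16 (88.9%), missing WT replicate 1 and Y136F replicate 3 of 1 week. On each array 7 probes were printed 10 times, which separates printing error from the spread between arrays. With 1 array per mouse, that spread holds mouse, amplification, labelling and hybridisation together. For Csf1 the repeated spots of an array had a median SD of 0.071 and the mice of a group a median SD of 0.254. For Il10 these were 0.199 and 0.329. Over the 7 probes the SD between the arrays of a group was 1.5 to 5.01 times the SD of single spots. The value of an array is a mean of up to 10 spots, so printing error adds less to it than the spot SD.

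Lat itself had a scaled log2 signal of 3.19 ± 0.39 (SD, n = 3) in WT cells at 1 week and 3.59 ± 0.28 at 4 weeks. It was 2.52 ± 0.29 (n = 2, as an outlier spot was left out) and 2.71 ± 0.42 (n = 3) in LAT KO cells, and 4.25 ± 0.07 and 4.07 ± 0.31 in Y136F cells. None of the 4 differences from WT passed the threshold, while LAT KO was lower than Y136F after 4 weeks (-1.37 ± 0.23, limma adjusted p = 0.00275). Where the probe lies relative to the deleted part is not given, so the signal does not measure the deletion. The 75th percentile of the arrays lay between 1124 and 1896 intensity units and 84.2% to 97.9% of spots were well above background. In 2 LAT KO arrays, replicate 1 of the 1-week group and replicate 2 of the 4-week group, sex-linked genes went against the labelled sex. The first was labelled female and read male, the second was labelled male and read female. Whether the labels of these 2 arrays were exchanged was not tested, so LAT KO values of either time hold only as far as the labels do. The first also stood apart in several of the genes described here. Sex was read from whether Xist or Ddx3y gave the higher signal. The labelled males of the 1-week WT and LAT KO groups, both replicate 3, read male but with intermediate Xist signals, -3.98 and -3.74. Xist lay between -9.30 and -7.03 in the other arrays that read male, and between -0.19 and 0.74 in those that read female. The cause was not tested.

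After 4 weeks, 4 of the 10 genes were higher in Y136F than in WT cells and none was lower. They were Csf1, Ifng, Tnfsf8 and Tnfsf14, by 2.69-fold to 11.0-fold. The other 6, Il2, Il21, Il10, Csf2, Tnf and Lta, did not pass the threshold (limma, Benjamini-Hochberg adjusted p under 0.05 over all features). Over all 31545 features of that comparison 2.47% were called higher, 0.916% lower and 3.39% either way. Without overlap between the groups 5 of the 10 were higher (9.27% of features) and 2, Il2 and Il10, lower (17.1%). The median difference of the 10 genes was 0.64, against -0.19 over all features. That overall shift was -0.08 after quantile normalization and -0.05 in the authors' deposited matrix. In bulk RNA, more cells that express a gene and more mRNA per cell cannot be told apart.

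**Figure D1:**
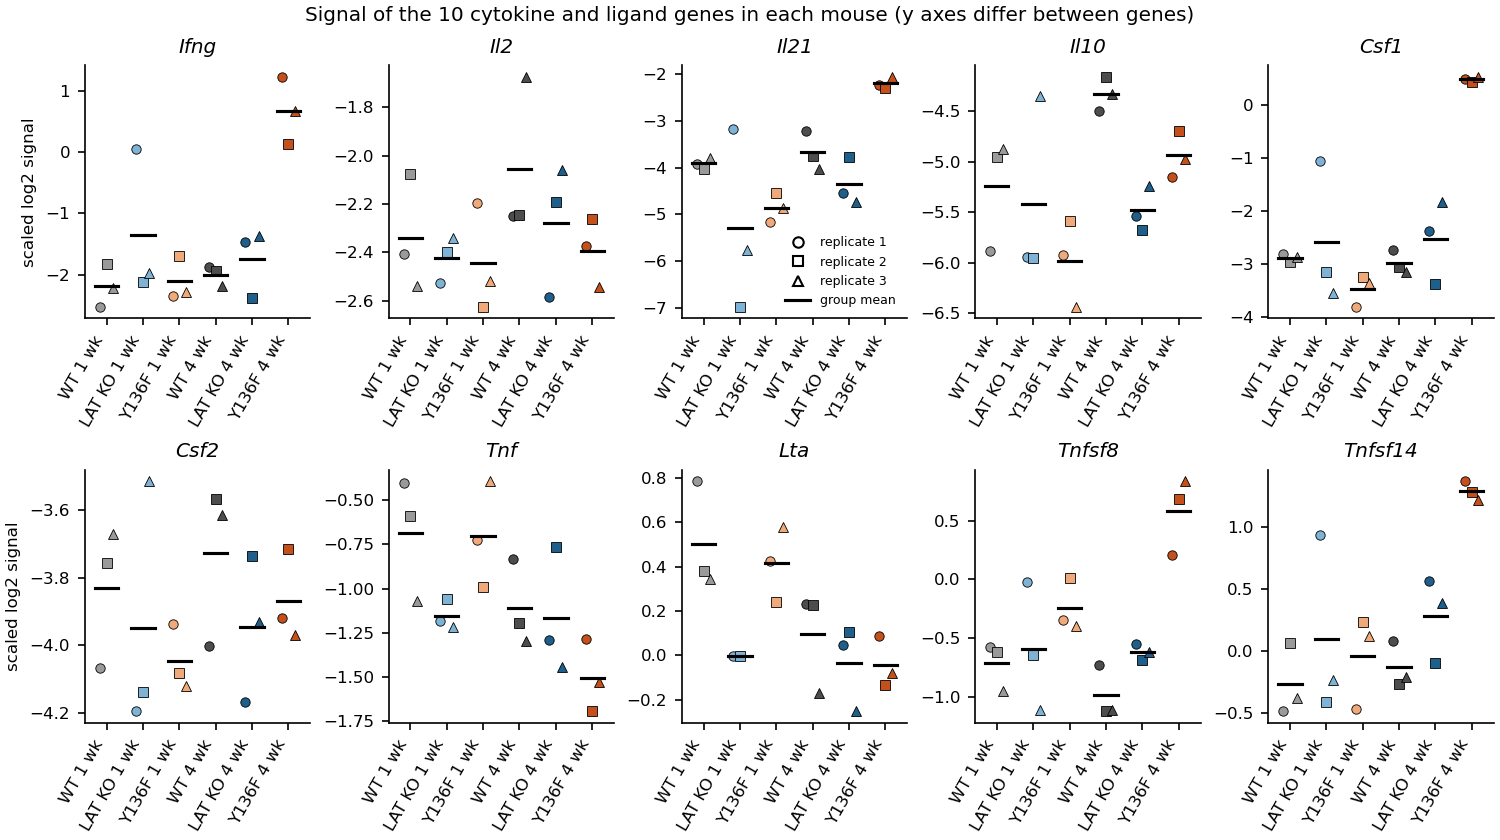
Scaled log2 signal (y axis, own range for each gene) of the 10 genes in every mouse of the 6 groups (x axis); symbols mark the replicate number, lines the group mean. All 3 Y136F mice of 4 weeks lie above the other arrays for Ifng, Il21, Csf1, Tnfsf8 and Tnfsf14, and LAT KO replicate 1 of 1 week is the next highest for all of these but Tnfsf8.

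Csf1 encodes M-CSF, the growth factor of monocytes and macrophages. Its signal in Y136F cells at 4 weeks was 0.49, 0.44 and 0.53 in the 3 mice, against -2.74, -3.04 and -3.14 in WT and -2.38, -3.37 and -1.83 in LAT KO cells. The Y136F mice lay close together and well clear of both other groups. Csf1 rose by 3.46 ± 0.46 on the log2 scale over WT (SE, n = 3 per group; limma adjusted p = 0.000395), an 11.0-fold difference and the largest among the 10 genes. The promoter shown above for Csf1 is the one with the NF-kB match.

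Ifng encodes interferon-gamma, which activates macrophages and induces antigen presentation. At 4 weeks the brighter Ifng probe read 1.23, 0.13 and 0.66 in Y136F cells, -1.88, -1.94 and -2.18 in WT cells and -1.47, -2.38 and -1.37 in LAT KO cells. The Y136F mice differed among themselves but overlapped neither other group. Ifng rose by 2.67 ± 0.44 over WT (adjusted p = 0.00205, 6.38-fold). A dimmer second probe, printed 10 times, read -0.49, -1.47 and -1.02 in the same Y136F mice and -3.08, -3.01 and -2.91 in WT. Tested as a feature of its own it rose by 2.01 ± 0.37 (adjusted p = 0.00426), so both probes were called. The probes ranked the 3 Y136F mice alike, with replicate 1 highest and replicate 2 lowest.

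**Figure D2:**
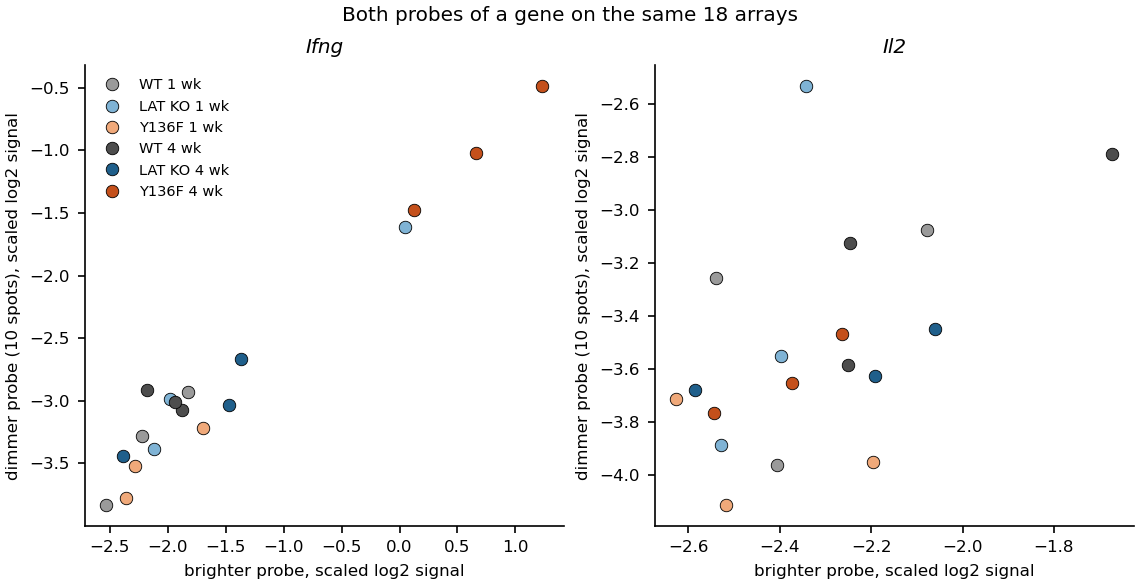
Signal of the brighter (x axis) and the dimmer (y axis) probe of Ifng and of Il2, both in scaled log2 units, for the 18 arrays coloured by group. The Ifng probes move together, with the Y136F mice of 4 weeks at the top right beside LAT KO replicate 1 of 1 week, while the Il2 probes scatter over a narrower range with the groups mixed.

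Tnfsf8 encodes CD30 ligand, a membrane protein that signals through CD30 on activated lymphocytes. Its 4-week signal was 0.21, 0.69 and 0.84 in Y136F mice, -0.73, -1.13 and -1.12 in WT mice and -0.55, -0.69 and -0.62 in LAT KO mice. The 3 groups did not overlap, with LAT KO between the others. Tnfsf8 rose by 1.57 ± 0.23 over WT in Y136F cells (adjusted p = 0.000845, 2.97-fold). The LAT KO difference from WT, 0.37 ± 0.23, was not called (0.526), nor was 0.40 ± 0.22 without the 2 LAT KO arrays that contradict their sex label (0.746).

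Tnfsf14 encodes LIGHT, a costimulatory ligand for the herpesvirus entry mediator and the lymphotoxin-beta receptor. Y136F mice of 4 weeks had signals of 1.38, 1.28 and 1.22, WT mice of 0.08, -0.27 and -0.21 and LAT KO mice of 0.57, -0.10 and 0.39. Y136F stood clear of both groups, while LAT KO and WT overlapped. Tnfsf14 rose by 1.43 ± 0.28 over WT (adjusted p = 0.00706, 2.69-fold).

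Il21, the cytokine with which helper T cells drive B cell differentiation, had the same arrangement without passing the threshold. It read -2.23, -2.30 and -2.06 in Y136F mice of 4 weeks, -3.22, -3.74 and -4.04 in WT and -4.54, -3.77 and -4.74 in LAT KO mice. The Y136F mice lay above both groups. The difference from WT was 1.47 ± 0.61 (95% interval 0.19 to 2.76 before adjustment, adjusted p = 0.239). The error of each feature was estimated from all groups together. For Il21 the signal of the 1-week LAT KO mice ranged from -6.99 to -3.17. With LAT KO replicate 1 of 1 week left out of the fit, the same difference had an SE of 0.34 and was called (adjusted p = 0.016). It was also called with normexp background correction (1.07 ± 0.27, 0.0313), with array weights (0.0199) and with only the groups compared (0.00684). Without both LAT KO arrays it was called with labelled sex as a term (0.0252) or not (0.0109). Array weights called 4435 of 31545 features in this comparison.

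For 5 of the 10 genes, Csf1, Ifng, Tnfsf8, Tnfsf14 and Il21, the lowest Y136F mouse of 4 weeks lay above the highest of all other arrays. Of all features with enough values, 3.26% did so. The gap was widest for Csf1, 0.44 against -1.06, and narrowest for Ifng, 0.13 against 0.04. For none of the 10 did the 3 mice lie below all other arrays (1.99% of features).

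The 4-week Y136F mice were labelled female and the WT mice male, so within that time genotype and sex cannot be told apart. A fit with labelled sex as a term rests on the 1-week WT and LAT KO mice. The labelled males of those groups had the intermediate Xist signals given above. With that term none of the 10 genes was called. Csf1 then differed by 2.75 ± 0.65 (adjusted p = 0.106), Ifng by 2.18 ± 0.64 (0.207), Tnfsf8 by 1.00 ± 0.29 (0.19) and Tnfsf14 by 1.09 ± 0.41 (0.394). Leaving out the 2 LAT KO arrays whose sex-linked genes contradict the label, the same term gave 3.31 ± 0.31 for Csf1 (7.44e-05), 2.71 ± 0.40 for Ifng (0.00292), 1.17 ± 0.26 for Tnfsf8 (0.0396) and 1.41 ± 0.29 for Tnfsf14 (0.0229). With sex as Xist and Ddx3y show it, Csf1 differed by 4.17 ± 0.57 and all 4 were called. The direction was the same in each of these fits. Each slide that held a Y136F mouse of 4 weeks also held a WT mouse of 4 weeks. Within the 3 slides the Y136F mouse was higher by 3.24 to 3.67 for Csf1, 2.07 to 3.11 for Ifng, 0.95 to 1.96 for Tnfsf8, 1.30 to 1.56 for Tnfsf14 and 0.99 to 1.98 for Il21.

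**Figure D3:**
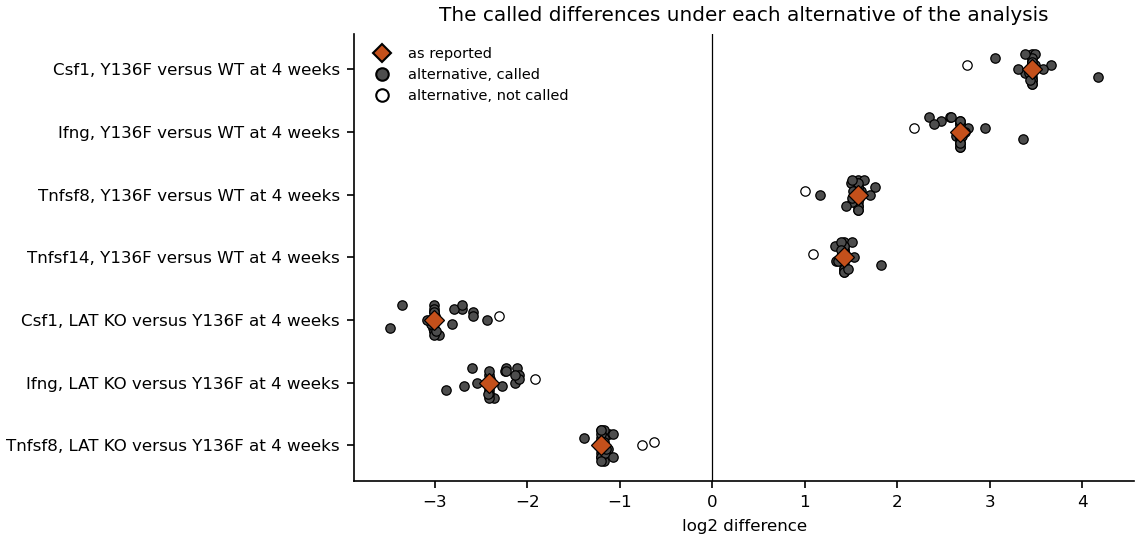
Log2 difference (x axis) of the called genes in 2 comparisons of 4 weeks, as reported (diamond) and under each alternative (circles; open where the adjusted p was 0.05 or more). Every circle keeps the sign of its diamond; the open ones are fits with labelled sex as a term, over all arrays or, for Tnfsf8 between the mutants, also without the 2 contradicting arrays.

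Between the mutants 3 of these genes differed at 4 weeks. Csf1 was lower in LAT KO than in Y136F cells, with a difference of -3.01 ± 0.46 (adjusted p = 0.000953), as were Ifng (-2.42 ± 0.44, 0.00394) and Tnfsf8 (-1.20 ± 0.23, 0.00571). Of all 31563 features 2.33% were called lower, 1.04% higher and 3.37% either way. Il21 differed by -2.16 ± 0.61 (0.0649, called with normexp at 0.00248 and in the authors' deposited matrix at 0.0312) and Tnfsf14 by -1.01 ± 0.28 (0.0639), both without overlap between the groups. With Il10 6 members were lower without overlap (9.7% of features). This comparison uses the same Y136F mice as the one with WT, so the 2 are not independent. With labelled sex as a term none of these was called, and Tnfsf8 was not called either with that term and without the 2 arrays (-0.76 ± 0.28, adjusted p = 0.312). Leaving out only LAT KO replicate 1 of 1 week gave 5 calls, the 3 genes with Il21 (adjusted p = 0.000769) and Tnfsf14 (0.00579). Leaving out both arrays also gave these 5, with a smaller Tnfsf14 difference of -0.82 ± 0.21 (0.0479).

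Csf1 was the only member whose Y136F effect was called as changed between the times. In 1-week Y136F mice it read -3.80, -3.23 and -3.36 and in 1-week WT mice -2.81, -2.96 and -2.86, so that every mutant lay below every WT mouse, by -0.59 ± 0.46 on average (not called, adjusted p = 0.89). Between 1 and 4 weeks the Y136F effect changed by 4.05 ± 0.65 (limma interaction, adjusted p = 0.0076). Among all 31514 features 0.517% were called, 0.39% higher and 0.127% lower. For Ifng the change was 2.59 ± 0.62 (0.0773), for Il21 2.42 ± 0.86 (0.316), for Tnfsf14 1.20 ± 0.40 (0.266) and for Tnfsf8 1.102 ± 0.33 (0.17). Without LAT KO replicate 1 of 1 week, which enters only through the shared error, all 5 of these changes were called. By label the WT groups went from 2 females and 1 male at 1 week to 3 males, while all Y136F mice were female. The change of the Y136F effect is thus confounded with sex. Labelled sex as a term left Csf1 at 3.58 ± 0.71 (0.0591).

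At 1 week no member was called in either mutant. In Y136F against WT cells the share of features called was 0.0158%, with 0.00317% higher and 0.0127% lower, and in LAT KO against WT cells 0.019%. At 4 weeks LAT KO cells did not differ from WT by the threshold in any of the 10 genes (0.0982% of features called, 0.057% higher and 0.0412% lower). No member was called between LAT KO and Y136F at 1 week, between WT at 4 and at 1 week, or in the change of the LAT KO effect with time. No feature at all was called in those 3 comparisons. In these 6 comparisons 0 to 3 members had an unadjusted p under 0.05. There were 2 between the WT groups, where 6106 of 31549 features had such a p. There was 1 in LAT KO cells at 4 weeks (3460 of 31566) and 1 between the mutants at 1 week (1800 of 31538). There were 0 in Y136F cells at 1 week (1905 of 31559) and in the change of the LAT KO effect (1611 of 31511). In LAT KO cells at 1 week (905 of 31553) the 3 were Lta, Tnf and Il21, all with negative differences. Without overlap, Y136F mice of 1 week were higher than WT in Tnfsf8 (4.65% of features) and lower in Il21 and Csf1 (6.32%). None was higher without overlap in LAT KO cells of 1 week (1.19%), and Tnfsf8 was at 4 weeks (9.21%). Between the mutants at 1 week LAT KO was lower without overlap in Tnf and Lta (5.87%) and higher in none (4.47%). WT cells of 4 weeks were higher than those of 1 week without overlap in Il10 (9.12%) and lower in Lta (10.6%). The median of the 10 differences was -0.10 in LAT KO cells at 1 week and -0.09 at 4 weeks, against -0.05 and -0.17 over all features.

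**Figure D4:**
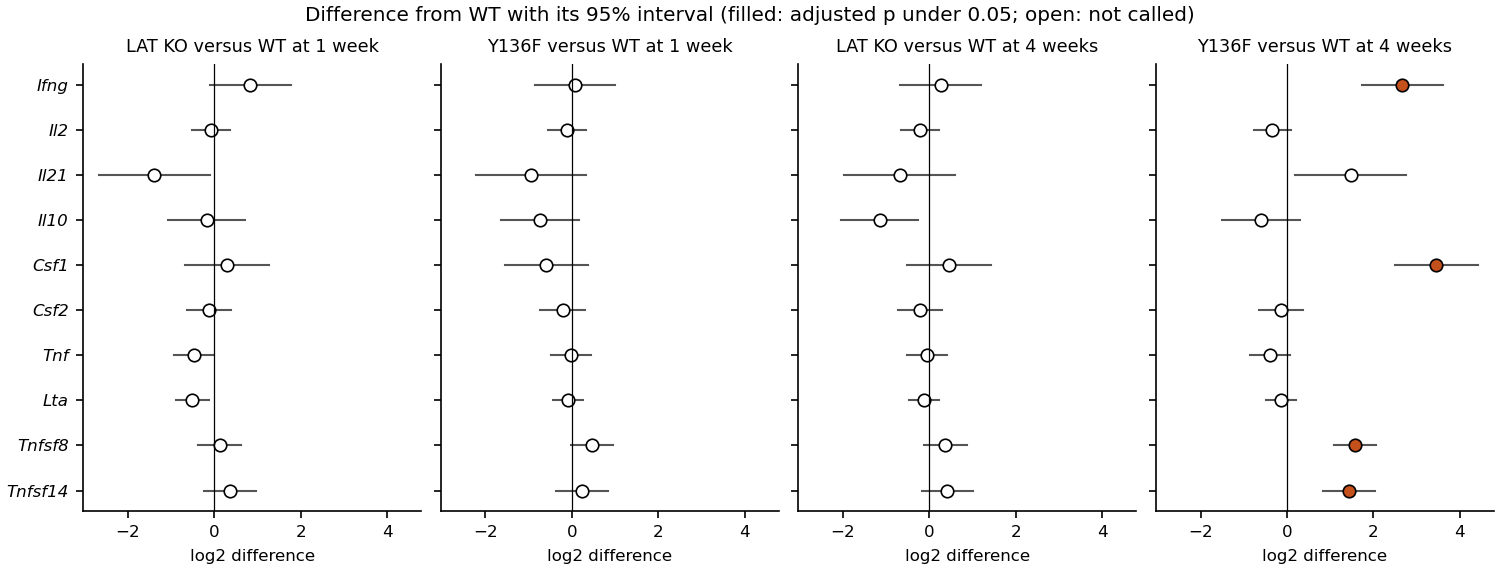
Log2 difference from WT of the same time (x axis) with its unadjusted 95% interval for the 10 genes in 4 comparisons; filled points passed the threshold. Filled points appear in the 4-week Y136F panel alone, for Ifng, Csf1, Tnfsf8 and Tnfsf14.

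LAT KO replicate 1 of 1 week carried much of the spread of its group. It read -1.06 for Csf1 where the other LAT KO mice read -3.14 and -3.54, and 0.04 for Ifng against -2.12 and -1.98. Tnfsf14 was 0.94 against -0.41 and -0.24, Tnfsf8 was -0.02 against -0.65 and -1.12, and Il21 was -3.17 against -6.99 and -5.76. In Csf1, Ifng, Tnfsf14 and Il21 it lay above each of the other 14 arrays outside the 4-week Y136F group, and below every 4-week Y136F mouse. Il2, at -2.53, and Tnf, at -1.18, were not raised in it. Without this array the LAT KO difference of Il21 at 1 week was called, at -2.46 ± 0.38 (adjusted p = 0.027), against -1.39 ± 0.61 with it (unadjusted p = 0.0351). Of the 2 readings that then remain, -6.99 was not well above background, and the lowest signals that were lay between -7.02 and -6.14 across the arrays. The other, -5.76, came from replicate 3, where 7888 of 43379 spots were marked as outliers. The sex-linked genes of replicate 1 read male, against a female label.

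The other cytokine genes showed small or unresolved differences. Il2, the T cell growth factor, had group means between -2.45 and -2.06 on its brighter probe, and each of the 6 groups overlapped the next in rank. The Y136F difference from WT at 4 weeks was -0.34 ± 0.21 (95% interval -0.77 to 0.10) on that probe, whose groups did not overlap (highest Y136F mouse -2.26, lowest WT mouse -2.25), and -0.46 ± 0.32 on the dimmer one (adjusted p = 0.469). Csf2, which encodes GM-CSF, had the narrowest range, with group means between -4.05 and -3.73. Its 4-week difference was -0.14 ± 0.25 in Y136F cells (95% interval -0.66 to 0.38).

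Il10, the cytokine that restrains antigen-presenting cells and effector responses, had its highest signals in 4-week WT mice, at -4.49, -4.16 and -4.33. LAT KO mice of 4 weeks read -5.53, -5.68 and -5.23 and Y136F mice -5.15, -4.69 and -4.97. Neither mutant group overlapped WT. The differences, -1.15 ± 0.43 in LAT KO (adjusted p = 0.372) and -0.61 ± 0.43 in Y136F cells (0.482), were not called. Without the 2 arrays the LAT KO difference was -1.06 ± 0.48 (0.726). With array weights the LAT KO difference was called, at -1.17 ± 0.28 (adjusted p = 0.0162). That fit called 3252 of 31566 features in this comparison, 2137 of them lower. In the 1-week groups Il10 ranged from -6.44 to -4.35 and the groups overlapped. Groups without overlap were frequent at 4 weeks: 14.6% of features were lower without overlap in LAT KO and 17.1% in Y136F cells.

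Tnf and Lta, neighbouring genes for TNF and lymphotoxin-alpha, followed each other across the arrays. Tnf read -0.40, -0.59 and -1.07 in 1-week WT mice and -1.18, -1.06 and -1.22 in LAT KO mice, and -0.73, -0.99 and -0.39 in Y136F mice. The LAT KO difference was -0.47 ± 0.22 (limma, unadjusted p = 0.0442, not called), and -0.45 ± 0.22 without the 2 arrays that contradict their sex label. Lta read 0.79, 0.38 and 0.34 in the same WT mice and a mean of -0.0033 in 2 LAT KO mice, the third having only outlier spots. The LAT KO difference of Lta was -0.51 ± 0.18 (unadjusted p = 0.0124, not called), with no overlap between the groups, and -0.51 ± 0.23 with 1 LAT KO mouse left when those arrays were omitted. Lower without overlap in that comparison were 3.8% of features. At 4 weeks Tnf was lowest in Y136F mice, at -1.29, -1.69 and -1.53, against -0.83, -1.20 and -1.30 in WT (-0.39 ± 0.22, adjusted p = 0.373). Over the 14 arrays with both values outside the 4-week Y136F group, the signals of Tnf and Lta correlated with r = 0.87, and with r = 0.87 over 13 without LAT KO replicate 1 of 1 week. The points share arrays and the scaling of each array.

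Of 17 receptor genes listed 16 were measured, and 0 were called in any comparison, including 4-week Y136F against WT cells, where 3.39% of all features were called. In 4-week Y136F cells their median difference from WT was -0.16, against -0.19 over all features. Csf1r, the receptor of the Csf1 product and a myeloid marker, differed by 0.98 ± 0.42 (adjusted p = 0.258). Ifngr2, a chain of the interferon-gamma receptor, differed by -0.53 ± 0.15 (0.0705).

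Of the other TNF family ligands, 3 of 12 tested were higher in 4-week Y136F than in WT cells and none was lower. Of all features 2.47% were called higher and 0.916% lower in that comparison. Fasl, the death ligand of cytotoxic and activated T cells, rose by 1.25 ± 0.19 (adjusted p = 0.00116). Tnfsf10, which encodes TRAIL, rose by 0.94 ± 0.24 (0.0369) and Tnfsf13b, which encodes the B cell survival factor BAFF, by 0.79 ± 0.20 (0.0347). Fasl was lower in 4-week LAT KO than in Y136F cells (-1.08 ± 0.19, adjusted p = 0.00314), as did Tnfsf11, which encodes RANKL (-1.57 ± 0.34, 0.0128). Fasl also had a larger Y136F effect at 4 than at 1 week, by 1.33 ± 0.27 (0.0317). The median of the 12 was 0.09 in 4-week Y136F cells, against -0.19 over all features. Of 17 other T cell cytokine genes tested 1 was called there (3.39% of all features). This was Areg, which encodes amphiregulin, a ligand of the epidermal growth factor receptor, and it rose by 2.07 ± 0.38 (adjusted p = 0.00457).

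Transcription factors that act on cytokine genes were measured for 27 of 28 listed. In 4-week Y136F cells 8 were higher than in WT (2.47% of all features), 1 was lower (0.916%) and 18 were not called. Their median was 0.19, against -0.19 over all features. Those that rose were Bhlhe40 (2.07 ± 0.23, adjusted p = 9.77e-05), a regulator of T cell cytokine output, Eomes (2.62 ± 0.38, 0.000836), a T-box factor that acts on Ifng, Jun (1.90 ± 0.34, 0.00367), Prdm1, Nfatc1, Stat4, Bcl6 and Jund. Irf4, a TCR-induced factor, was the 1 that fell (-1.05 ± 0.23, 0.0155). Egr1, Egr2 and Egr3, immediate targets of TCR signalling, were lower with Irf4 in LAT KO cells at both times, by -2.44 ± 0.27 for Egr2 at 1 week (0.000857), where no ligand gene was called. In 1-week Y136F cells Irf4 (-1.59 ± 0.23, 0.0225) and Egr3 (-1.47 ± 0.21, 0.0225) were lower too. Between the mutants at 4 weeks 13 of the 27 were lower in LAT KO (2.33% of all features) and none was higher (1.04%).

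Among 11 RNA-binding regulators of cytokine mRNA, such as the Zfp36 and Rc3h families, 1 was called in 4-week Y136F cells (3.39% of all features). This was Hnrnpd (0.62 ± 0.16, adjusted p = 0.0413). Genes induced by interferon-gamma were measured for 21 of 22, and 0 were called against WT in any group. In 4-week Y136F cells, where Ifng was higher, 17 of the 21 had a positive difference. The median was 0.31, against -0.19 over all features. In 4-week LAT KO cells, where Ifng was not called, the count was also 17 with a median of 0.37 (-0.17 over all features). At 1 week, where Ifng was called in neither mutant, the count was 19 in LAT KO and 18 in Y136F cells. The medians there were 0.32 and 0.26, against -0.05 and -0.12 over all features. The 2 mutants share their WT controls, and the list's median difference between them at 4 weeks was -0.05.

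Markers of the labelled cell were present on every array, with Cd4 between 2.38 and 3.05 and Cd3e between 3.96 and 4.54. Among the naive CD4 T cell markers Ccr7, a lymph node homing receptor, was lower in 4-week Y136F than in WT cells (-1.36 ± 0.16, limma adjusted p = 0.00011), and Cd44 was not called. Of 6 plasma cell markers 4 were higher (2.47% of all features), Jchain (3.19 ± 0.53, 0.00203), Xbp1, Prdm1 and Mzb1. Prdm1 and Xbp1 are also expressed by activated T cells. The summed signal of the 6, in multiples of the array's 75th percentile, was 6.72 to 8.58 in these mice and 2.58 to 2.69 in 4-week WT mice. It was 4.94 in LAT KO replicate 1 of 1 week and 2.14 and 2.26 in the other mice of that group. Of 6 mast cell and basophil markers 2 were higher (2.47% of all features), Hdc (3.23 ± 0.22) and Cpa3 (3.98 ± 0.82). The sum of the 6 was 3.42 to 4.91 against 1.21 to 1.47 in WT. In LAT KO replicate 1 of 1 week that sum was 0.79. Sdc1, Tnfrsf17, Ms4a2, Gata2, Fcer1a and Mcpt8 were not called, and Gata2 was above background on 9 of 18 arrays.

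No B cell marker of 10 was called in 4-week Y136F cells, and the sum of the 8 measured on every array was 7.33 to 11.7 there and 6.45 to 8.30 in WT. In LAT KO replicate 1 of 1 week it was 13.96, against 3.95 and 4.20 in the other mice of that group. None of 8 NK cell markers and 1 of 11 myeloid markers, S100a8, was called in 4-week Y136F cells (3.39% of all features). The sums over the 6 NK cell markers measured on every array were 7.78 to 12.7 and 9.81 to 10.8 in WT. Those over the 7 such myeloid markers were 2.21 to 3.52 and 2.56 to 3.74. The other 4 myeloid markers, which that sum leaves out, had positive differences in 4-week Y136F cells: Csf1r 0.98 ± 0.42, Lyz1 0.35 ± 0.31, Fcer1g 0.92 ± 0.25 (adjusted p = 0.0584, groups without overlap) and S100a9 1.22 ± 0.48. Against LAT KO cells of 4 weeks 3 of the 11 were higher in Y136F cells (2.33% of all features), S100a8, S100a9 and Fcer1g. Of 8 regulatory T cell markers Entpd1 was higher and Gpr83 lower, and the sums, 11.7 to 14.99 and 12.98 to 18.5, overlapped. Cd8a, the 1 measured CD8 T cell marker, was not called. Their part in the differences of the ligand genes was not tested.

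The genes whose signal followed each called ligand most closely over the 18 arrays, among 13662 named genes with a value on all of them, differed between the ligands. For Ifng the closest was Jchain (Pearson r = 0.98), the immunoglobulin joining chain, then Slpi and Lilrb4a. For Csf1 it was Ptpn13, a tyrosine phosphatase (r = 0.99), then the chemokine gene Ccl1 and Epas1. Tnfsf8 was followed most closely by Ncoa7, Odc1 and Marcksl1 (r = 0.93 to 0.94), and Tnfsf14 by Tgm2, Sostdc1 and S100a6 (r = 0.97). Since the 4-week Y136F mice set much of these values, they were also computed without them. Over the other 15 arrays r was 0.94 for Ifng and Jchain and 0.96 for Csf1 and Ptpn13. Over 14, also without LAT KO replicate 1 of 1 week, these were 0.84 and 0.92. Among the ligands themselves Ifng and Csf1 correlated with r = 0.86 over those 15 arrays and 0.66 over 14, and Ifng and Tnfsf14 with r = 0.87 and 0.81. Arrays of a group and the scaling of each array are shared by the points, so these are descriptions of the arrays.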

How the data were processed

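RNA of sorted naive CD4+ T cells was amplified, labelled with Cy3-CTP and hybridised to Agilent mouse arrays, per the labels' protocols. Agilent Feature Extraction 10.5.1.1 gave the spot intensity, per the file headers. The deposited processed signal is a background-corrected linear intensity with no scaling between arrays. The submitters' processing notes name Feature Extraction 10.5 and limma. The authors' deposited matrix holds log2 values (column medians 8.558 to 8.57, centring method not given in the sources used here) and served as an alternative.

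For this work log2 signals were scaled to each array's 75th percentile over 43379 non-control spots. Spots marked as outliers were left out and spots of a probe averaged. They numbered 7888 on LAT KO replicate 3 of 1 week and 187 to 952 on every other array. Probes were named by accession from a RefSeq table of GRCm38.p6 (24836 of 41174 named), and each gene was represented by its brightest probe. Probes well above background on 3 or more arrays were kept, giving 31616 features, 17052 of them named genes. Array design coordinates refer to another build and were not used. The test was limma 3.58.1 (R 4.3.3), two-sided, with 1 mean per group, an intensity trend, 12 residual degrees of freedom and prior ones with a median of 5.44. P-values were adjusted by Benjamini-Hochberg over the whole table, with a threshold of 0.05. The number of arrays limits the precision, and p-values measure the spread between these mice, each measured on 1 array. Named genes are the 10 members, Lat, called members of the pathway lists (up to 6 of smallest p) and the 3 closest correlates of each called member. Other named genes (markers, receptors, further factors) were chosen after their values were seen. Members and lists were chosen with earlier results of these data known.

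Alternatives were normexp background correction (offset 50, on median intensity), quantile normalization, the matrix, other probe, filter (none, or 9 arrays) and outlier rules, slide, sex or replicate number as a term, no trend, array weights, fits with only the groups compared, and each array of the groups compared left out. Leaving LAT KO replicate 1 of 1 week out of all fits and 2 further sex fits were added after seeing the data.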

Additional observations from a re-analysis of the deposited data

Results flagged for a closer look

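The effect of Y136F on Csf1 differed between the times, by 4.05 ± 0.65 on the log2 scale (limma interaction, adjusted p = 0.0076). At 1 week all 3 Y136F mice lay below the WT mice, and at 4 weeks all 3 lay above them. Labelled sex as a term left 3.58 ± 0.71 (adjusted p = 0.0591), and slide as a fixed term 4.05 ± 0.52 (0.00583). No other member met a rule for a closer look, although the LAT KO group of 1 week, with 3 mice, is too small for an outlier test.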

How the results depend on the processing

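Il21 joined the 4 calls in 4-week Y136F against WT cells, making 5, under normexp, array weights, only the groups compared, LAT KO replicate 1 of 1 week left out, and without the 2 arrays, with labelled sex as a term or not. The 4 calls in 4-week Y136F against WT cells held in 24 of 25 alternatives each, the exception being labelled sex as a term. The 3 in LAT KO against Y136F cells held in 24 (Tnfsf8 in 23), and that of Csf1 between the times in 30 of 31. No called value changed sign. With labelled sex as a term 0 members were called in each of these comparisons. Array weights called 5 in LAT KO against Y136F at 4 weeks (2418 of 31563 features) and 5 in the change of the Y136F effect (1141 of 31514). They called 1 in LAT KO against WT at 1 week (63 of 31553) and 2 at 4 weeks (Il10 and Tnfsf14, with 3252 of 31566). Without the 2 arrays whose sex-linked genes go against the label the counts were 5, 4 and 1 in the first 3 of these, and with sex as a term besides 1 in LAT KO against WT at 1 week and 3 in the change. Sex as Xist and Ddx3y show it gave 5 in LAT KO against Y136F and 2 in the change. LAT KO replicate 1 of 1 week left out of every fit gave 5, 5 and 1, and fits with only the groups compared gave 5 and 4. Leaving out in turn each array of the groups compared kept the counts at 4 and 4, 3 and 3, and 1 and 1. It moved LAT KO against WT at 1 week between 0 and 1 (Il21, without LAT KO replicate 1). Arrays of the other groups, which share the error estimate, were not left out in turn. The cause of these differences was not tested.

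With the replicate number as a block the counts stayed 4, 3 and 1 and no other member was called. Replicate numbers did not pair the mice: same-numbered mice had a median correlation of -0.05 and 15 of 45 pairs were over 0.1. For mice with other numbers these were 0.03 and 39 of 90. Pairs on the same slide had the highest median, 0.09, with 12 of 25 over 0.1. The calls over all features moved from 1069 in 4-week Y136F against WT cells to 85 with labelled sex as a term and 4435 with array weights, and from 1063 to 167 and 2418 in LAT KO against Y136F. They moved from 163 to 50 and 1141 in the change of the Y136F effect. The ranges were 0 to 63 for LAT KO and 2 to 364 for Y136F against WT at 1 week, 7 to 3252 for LAT KO at 4 weeks, 0 to 115 between the mutants at 1 week, 0 to 1048 between the WT groups and 0 to 2 for LAT KO between the times, so the background shares depend on the setting. Signal over background limits Il21 on 1 array and Il10 on 2.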
